A study of Mus musculus with 14 samples.

Results

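H3K4me1 is histone H3 carrying a single methyl group on lysine 4, and the data described here are the H3K4me1 regions listed for livers of YAP transgenic mice and for wild type (WT) livers. Members were all regions of these lists on chromosomes 1 to 19, X and Y: 6274 in the YAP list and 5905 in the WT list, together 12179 of the 123145 regions in the 6 lists of the series. Both groups were C57BL/6 mice. In YAP livers a transgene encoding YAP was switched on, the labels giving doxycycline at 50 mg/L in drinking water for 10 days. The same treatment text stands on the WT samples, and the labels do not say whether WT mice drank doxycycline, which promoter drives the transgene, or the age and sex of the mice. Chromatin was cut with micrococcal nuclease and immunoprecipitated with Abcam ab8895 from 2 replicates per genotype, which made 4 H3K4me1 libraries out of 14 in the series. Each deposited list stood for both replicates of a genotype. Nothing here therefore measures the spread between replicates, no p-value is given, and intervals cover counting error in regions that were treated as independent.

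H3K4me1 is laid down by the Kmt2c and Kmt2d methyltransferases and is best known as a mark of enhancers, where it lies beside open chromatin, and of the flanks of active promoters, whose centres carry the trimethylated form. H3K4me2, the dimethylated form, covers both places. LSD1, encoded by Kdm1a, removes methyl groups from H3K4me1 and H3K4me2. YAP is the co-activator held back by the kinases of the Hippo pathway; with TEAD factors it binds largely to enhancers, and in liver it drives growth and biliary features in hepatocytes.

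Promoters seldom held H3K4me1 in these lists, which cover little of the genome. A promoter window, 250 bases before to 50 after an annotated start in RefSeq, was available for 17492 of the 21887 protein-coding genes. A region touched such a window at 19 genes in the YAP list and 6 in the WT list, 2 of them in both, while H3K4me2 touched it at 9060 genes in YAP and 9082 in WT. The lists differ in size. H3K4me1 covered 2.30 Mb in YAP and 2.06 Mb in WT, and H3K4me2 49.0 Mb in YAP and 52.2 Mb in WT, beside an autosomal span of 2429 Mb. The count that placement alone would give was not computed, so these counts do not measure avoidance of promoters. The 25 windows with an H3K4me1 region held a median of 3 CpG dinucleotides (0 to 10), against 13 (0 to 67) over all 21263 windows. To show what kind of sequence this was, 3 such windows are printed (RefSeq, GRCm38.p6), chosen after their values were seen: Nf2, the tumour suppressor upstream of the Hippo kinases (YAP list), Nfix, of the nuclear factor I family (WT list), and Ccser2 (both lists). They run 5′ to 3′ along the gene, and capitals mark the bases inside the H3K4me1 region (for Ccser2 the YAP region).
Nf2: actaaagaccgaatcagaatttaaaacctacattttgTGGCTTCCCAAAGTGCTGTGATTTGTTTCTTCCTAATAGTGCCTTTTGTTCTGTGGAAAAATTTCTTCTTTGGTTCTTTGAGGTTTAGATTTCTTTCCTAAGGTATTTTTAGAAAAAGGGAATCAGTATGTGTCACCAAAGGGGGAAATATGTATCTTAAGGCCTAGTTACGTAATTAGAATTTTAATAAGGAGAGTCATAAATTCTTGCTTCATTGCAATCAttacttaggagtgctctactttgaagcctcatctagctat
Nfix: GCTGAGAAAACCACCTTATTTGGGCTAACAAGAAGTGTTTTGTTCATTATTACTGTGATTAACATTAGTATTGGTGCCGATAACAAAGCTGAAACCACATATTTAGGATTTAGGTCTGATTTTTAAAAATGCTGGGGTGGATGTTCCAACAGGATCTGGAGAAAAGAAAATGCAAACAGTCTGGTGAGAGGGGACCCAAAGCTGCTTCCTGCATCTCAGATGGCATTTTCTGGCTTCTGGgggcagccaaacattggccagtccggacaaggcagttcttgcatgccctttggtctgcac
Ccser2: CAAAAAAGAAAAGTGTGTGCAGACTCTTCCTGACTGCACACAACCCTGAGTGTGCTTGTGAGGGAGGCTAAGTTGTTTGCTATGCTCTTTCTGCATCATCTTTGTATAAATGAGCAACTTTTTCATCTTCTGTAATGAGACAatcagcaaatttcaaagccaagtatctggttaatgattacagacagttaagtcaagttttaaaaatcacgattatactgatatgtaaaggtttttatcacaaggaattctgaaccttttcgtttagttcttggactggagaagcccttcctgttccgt

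The Nf2 window (chr11:4833086-4833385, minus strand) held 2 CpG dinucleotides, the Nfix window (chr8:84772826-84773125, minus strand) 2 and the Ccser2 window (chr14:36919486-36919785, minus strand) 3. All of these starts lay inside the gene, 16.4 kb from the outer boundary for Nf2, 28.4 kb for Nfix and 49.3 kb for Ccser2, so they belong to shorter transcripts. The regions covered 223, 240 and 142 of the 300 bases. For contrast, windows are printed for Srgap2, Susd6 and Rxra, which hold the 3 largest YAP clusters described below, with every CpG in capitals.
Srgap2: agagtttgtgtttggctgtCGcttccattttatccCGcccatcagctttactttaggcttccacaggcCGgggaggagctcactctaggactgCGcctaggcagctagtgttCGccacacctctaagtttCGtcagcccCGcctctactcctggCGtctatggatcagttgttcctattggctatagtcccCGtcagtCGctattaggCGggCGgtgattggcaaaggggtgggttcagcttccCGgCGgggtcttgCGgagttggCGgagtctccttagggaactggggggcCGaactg
Susd6: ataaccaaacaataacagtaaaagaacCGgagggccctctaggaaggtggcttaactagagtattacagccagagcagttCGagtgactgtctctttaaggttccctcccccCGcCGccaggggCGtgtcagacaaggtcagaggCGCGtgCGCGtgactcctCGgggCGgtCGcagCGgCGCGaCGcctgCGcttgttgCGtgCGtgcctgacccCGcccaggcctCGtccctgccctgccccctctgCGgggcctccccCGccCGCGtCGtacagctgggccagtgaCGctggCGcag
Rxra: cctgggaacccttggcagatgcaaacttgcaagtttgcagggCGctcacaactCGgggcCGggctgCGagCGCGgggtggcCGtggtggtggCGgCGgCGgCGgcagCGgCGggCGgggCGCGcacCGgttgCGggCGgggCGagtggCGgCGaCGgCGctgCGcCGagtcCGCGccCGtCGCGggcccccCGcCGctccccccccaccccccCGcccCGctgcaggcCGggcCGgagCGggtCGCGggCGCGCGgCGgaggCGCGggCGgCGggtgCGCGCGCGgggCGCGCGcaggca

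These windows, at chr1:131527312-131527611 on the minus strand, chr12:80790282-80790581 on the plus strand and chr2:27676951-27677250 on the plus strand, held 17, 28 and 55 CpG dinucleotides. None touched an H3K4me1 region. The nearest region lay 1.72 kb away in the YAP list and 15.1 kb in the WT list at Srgap2, 4.27 kb in YAP and 5.15 kb in WT at Susd6, and 8.18 kb in YAP and 9.61 kb in WT at Rxra. A window without a region could also be poor in CpG: that of Nr1h4, the bile acid receptor FXR, held 7, with the nearest region 3.78 kb away in YAP and 3.58 kb in WT. This Nr1h4 start lay 27.0 kb inside the outer boundary, while that of Srgap2 lay 0.17 kb and that of Rxra 0.756 kb from it. Over all genes, the window held a median of 29 CpG in genes with at least 5 regions over both lists, 24 in genes with 1 to 4, and 12 in autosomal genes with none. The TEAD motif GGAATG, looked for on both strands, was in the window of 9.29% (5.88% to 14.4%) of genes with at least 3 more regions in YAP, 5.61% (3.16% to 9.77%) of those with at least 3 fewer, 11.2% of all genes with a region and 13.2% of all autosomal genes with a window. GGAATG itself holds no CpG, and a match in a window is a description, not a bound site.

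Enrichment in both lists was weak. The authors' enrichment value per region, whose definition is not stated, had a median of 2.83 in the YAP list and 2.89 in the WT list and did not pass 4.79 in YAP or 4.68 in WT, while the H3K4me2 lists had medians of 4.03 in YAP and 4.21 in WT and reached 14.1 in YAP and 15.3 in WT. The authors' −log10 p had a median of 4.16 in YAP and 4.05 in WT, against 9.09 in YAP and 8.62 in WT for H3K4me2. After the authors' correction for multiple testing, q was exactly 1 for 2378 YAP regions (37.9%, 36.7% to 39.1%) and for 3986 WT regions (67.5%, 66.3% to 68.7%). A q of at most 0.05 was reached by 102 YAP regions (1.63%) and by 1 WT region (0.0169%), compared with 96.3% of the YAP and 97.0% of the WT H3K4me2 regions. The lists were also parts of longer ones, because the numbers in the region names ran to 16113 in YAP and 10563 in WT, by a filter that is not stated.

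**Figure D1:**
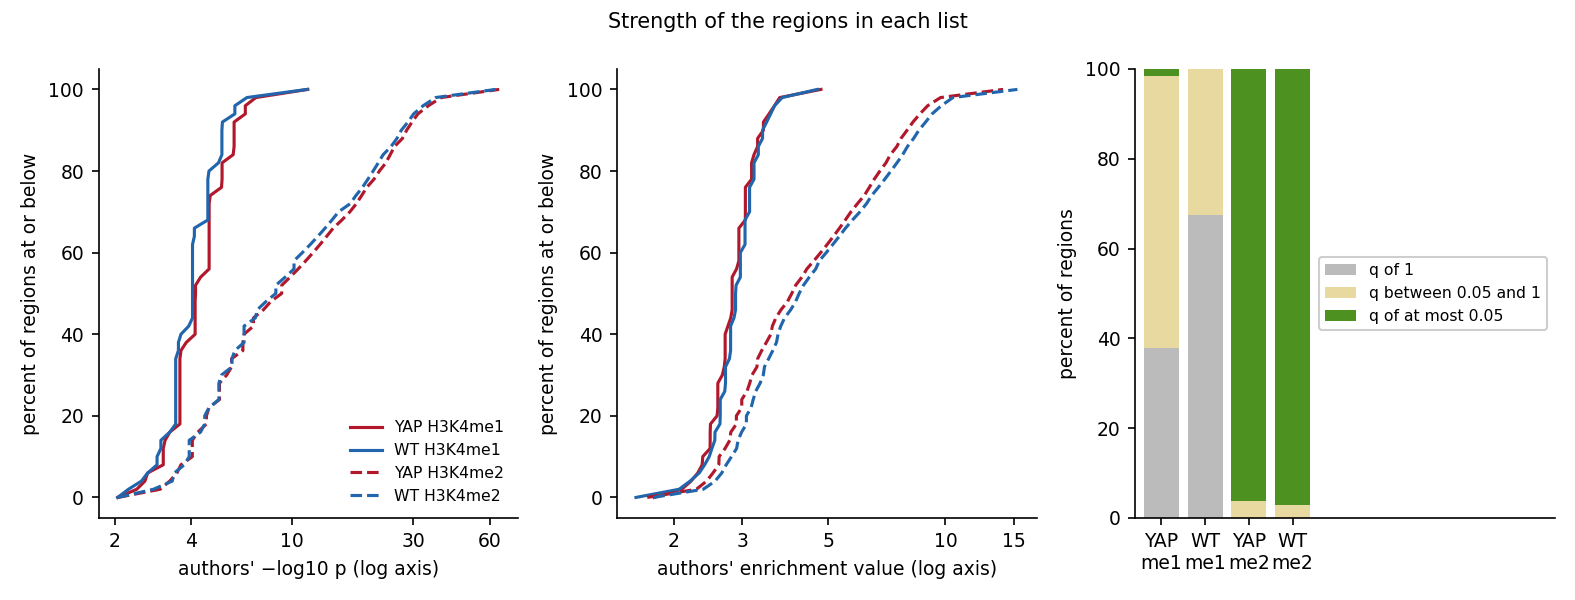
Percent of regions at or below each value of the authors' −log10 p (left, log axis) and enrichment value (middle, log axis), and percent of regions by the authors' q-value (right), for the YAP and WT lists of H3K4me1 (me1) and H3K4me2 (me2). Both H3K4me1 curves lie left of both H3K4me2 curves, and q is 1 for 37.9% of the YAP and 67.5% of the WT H3K4me1 regions.

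The 102 YAP regions with the lowest q-values were spread over 18 chromosomes and 92 genes, with a median width of 457 bp. Of these, 97 lay in a gene body, 50 (49.0%, 39.5% to 58.6%) overlapped a WT region and 53 lay on YAP H3K4me2. Ankrd11, which encodes a chromatin regulator, held 3 of them, while Mtss1, Picalm and Rere held 2 each. Of the 92 genes, 82 also had a WT region, beside 58.5% of all genes with a YAP region. Many of the 92 held several regions, so this count does not measure agreement between the genotypes. Ankrd11 had 27 YAP and 25 WT regions in all, and Rere had 20 in YAP and 32 in WT. No H3K4me1 region of either list lay on chromosome X or Y, although 966 protein-coding genes are on X and H3K4me2 was listed on X at 950 regions in YAP and 954 in WT.

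The YAP list was 1.06 times as long as the WT list and covered 2.30 Mb against 2.06 Mb. Regions had a median width of 312 bp in YAP and 294 bp in WT. By chromosome, the ratio of YAP to WT regions ran from 0.918 on chromosome 18 to 1.26 on chromosome 2, where Ptprj, Hipk3 and Pkp4 alone held 56 YAP and 19 WT regions and the ratio was 1.19 without them. With 1 bp in common counted as shared, 1472 YAP regions (23.5%, 22.4% to 24.5%) overlapped a WT region and 4802 were YAP-only, while in the WT list 1506 regions (25.5%, 24.4% to 26.6%) were shared and 4399 were WT-only. Shared regions were wider, with a median of 391 bp for those of the YAP list and 361 bp for those of the WT list, against 296 bp for YAP-only and 278 bp for WT-only regions. A q of 1 was listed for 26.4% of the shared and 41.4% of the YAP-only regions, and for 58.8% of the shared and 70.5% of the WT-only regions. By gene, 61.6% (60.2% to 63.0%) of the YAP-only regions lay in a gene that also held a WT region. Likewise 73.9% (72.6% to 75.2%) of the WT-only regions lay in a gene with a YAP region. A gene is a far larger target than a region, so these shares cannot be compared with the overlap of regions.

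H3K4me2 of the same genotype lay under 42.0% of the YAP list (40.8% to 43.3%) and 52.8% of the WT list (51.6% to 54.1%), a difference of -10.8 percentage points (-12.6 to -9.04). Shared regions had it more often than the rest, 53.9% against 38.4% of YAP-only regions in YAP, and 65.1% against 48.6% of WT-only regions in WT. Each H3K4me1 list was set here against another H3K4me2 list, so the difference of -10.8 points mixes both marks. On the YAP H3K4me2 list lay 38.4% of YAP-only and 34.8% of WT-only regions. On the WT H3K4me2 list lay 38.3% of YAP-only and 48.6% of WT-only regions. Within 5 kb, H3K4me2 of the same genotype was present for 75.02% of the YAP and 81.8% of the WT regions. With LSD1, 30 YAP regions (0.478%, 0.335% to 0.682%) overlapped a YAP LSD1 region and 12 WT regions (0.203%, 0.116% to 0.355%) overlapped a WT LSD1 region. The LSD1 lists were short and unequal, at 3353 regions in YAP and 1718 in WT. These shares therefore measure neither avoidance of LSD1 nor a difference between the genotypes.

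Of the YAP regions, 90.3% (89.6% to 91.0%) lay in gene bodies, as did 94.4% (93.78% to 94.95%) of the WT regions, while protein-coding gene bodies made up 40.5% of the autosomal span. Gene ends, meaning either boundary with 1 kb on both sides, held 2.01% in YAP and 1.68% in WT, below their 3.08% of the span. Between genes lay 8.93% (8.25% to 9.66%) of the YAP and 5.20% (4.66% to 5.79%) of the WT regions. In the 2211 genes with a region and a known strand, density peaked just inside the gene. It was 4.52 regions per Mb in YAP and 2.71 in WT within 1 kb of the start, then 112 per Mb in YAP and 119 in WT from 1 to 5 kb, and 77.8 per Mb in YAP and 76.1 in WT from 5 to 10 kb. Beyond 20 kb the YAP list was the denser, with 22.7 per Mb in YAP against 20.1 in WT from 20 to 50 kb and 11.5 per Mb in YAP against 8.99 in WT from 50 to 100 kb. H3K4me2 showed no such gap at the start, at 293 per Mb in YAP and 313 per Mb in WT within 1 kb. The median distance from the start was 15.5 kb in YAP (quartiles 5.78 and 39.7 kb) and 13.3 kb in WT (5.39 and 34.6 kb).

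**Figure D2:**
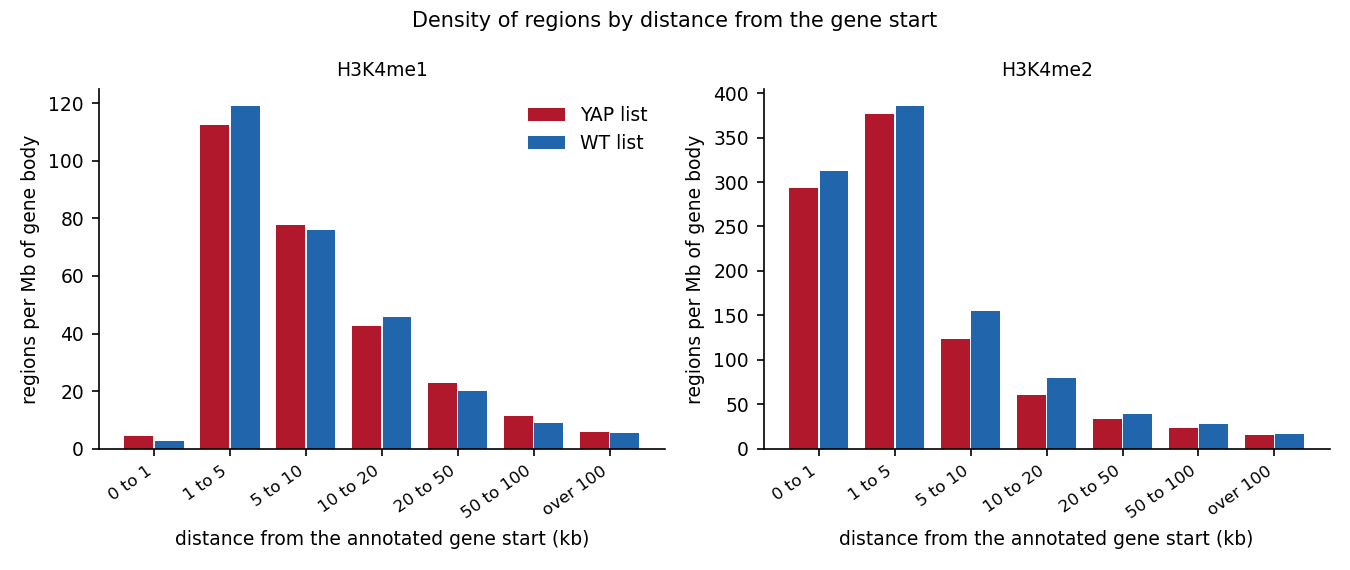
H3K4me1 regions (left) and H3K4me2 regions (right) per Mb of gene body, by distance of the region centre from the annotated gene start in kb, in the 2211 genes with an H3K4me1 region and a known strand; bars are the YAP and WT lists. H3K4me1 is scarce in the first 1 kb, at 4.52 per Mb in YAP and 2.71 per Mb in WT, and densest from 1 to 5 kb.

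Of the 21887 protein-coding genes, 2144 (9.80%) had at least 1 region in the YAP list and 1847 (8.44%) in the WT list. These made 2736 genes, of which 1255 were in both lists, 58.5% of the YAP and 67.9% of the WT genes. A further 889 had YAP regions alone and 592 WT regions alone, mostly thinly: 637 of the 889 and 412 of the 592 held 1 region. Among the 719 genes with at least 5 regions over both lists, 691 had regions in both. Genes chosen by the sum of both lists, which are of similar length, will mostly have regions in each. That count therefore does not measure agreement between the genotypes. A gene with a region held a median of 2 in either list, and up to 31 in YAP and 32 in WT. Genes with 10 or more regions numbered 78 in YAP and 113 in WT, and genes with 1 region 1062 in YAP and 816 in WT, so the WT regions were gathered in fewer genes. The 100 genes with most regions held 22.7% of all YAP assignments and 25.6% of all WT assignments.

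Genes with regions were long, with a median of 57.1 kb against 17.2 kb for all protein-coding genes. Density, the number of regions per kb of gene, had a median of 0.0336 per kb (0.0314 to 0.0354) over the YAP genes and 0.0366 per kb (0.0341 to 0.0389) over the WT genes. Per Mb of gene, density was highest in genes of 50 to 100 kb, at 10.2 in YAP and 10.9 in WT, and lowest in genes over 200 kb, at 2.06 in YAP and 1.86 in WT. In genes of 100 to 200 kb, YAP had 8.07 regions per Mb and WT 7.18; in the shorter classes WT was level or denser. The highest densities among genes with at least 5 regions over both lists belonged to short genes. Zbed6, a transcription factor gene lying within Zc3h11a, had 3 YAP and 4 WT regions in 5.01 kb, all of them also counted for Zc3h11a. Purb, which encodes a single-strand DNA-binding protein, had 3 in YAP and 5 in WT in 8.48 kb, Gng5, a G protein gamma subunit, 2 in YAP and 5 in WT in 5.71 kb, and Epm2aip1 2 in YAP and 4 in WT in 7.25 kb. Hnrnpu, an RNA-binding protein of the nuclear matrix, had 5 YAP and 10 WT regions, of which 2 in YAP and 3 in WT were shared with the overlapping Cox20. Hjurp, a histone chaperone of centromeres, had 3 YAP and 11 WT regions, of which 1 in YAP and 4 in WT were shared with Mroh2a. B3gnt2, a glycosyltransferase, had 10 YAP and 8 WT regions in 25.6 kb, Abhd17c, a depalmitoylase, 12 in YAP and 16 in WT in 42.5 kb, and Siah2, a ubiquitin ligase, 4 in YAP and 6 in WT in 17.5 kb.

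Genes were called when the YAP list had at least 3 regions more or fewer than the WT list. Of the 2736 genes, 215 (7.86%) had at least 3 more and 255 (9.32%) at least 3 fewer; any excess was found in 1274 (46.6%), any deficit in 1094 (40.0%), and 368 had equal numbers. Called genes with more were longer than those with fewer, with medians of 102 kb and 74.3 kb. WT had no region at 89 of the 215, and YAP none at 67 of the 255. The call rested on small numbers for many genes: 94 of the 215 differed by exactly 3, as did 96 of the 255, while 263 and 214 genes stopped at a difference of 2. The split also moved with the authors' q-value. When regions with q of 1 were left out, 3896 YAP and 1919 WT regions remained, so the YAP list was then 2.03 times as long, and 221 genes had at least 3 more and 21 at least 3 fewer. With the 1919 strongest regions of each list, an alternative added after the data were seen, the counts were 51 more and 70 fewer. The larger side also turned when regions of a list within 1 kb were joined, to 159 genes with at least 3 more and 131 with at least 3 fewer.

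**Figure D3:**
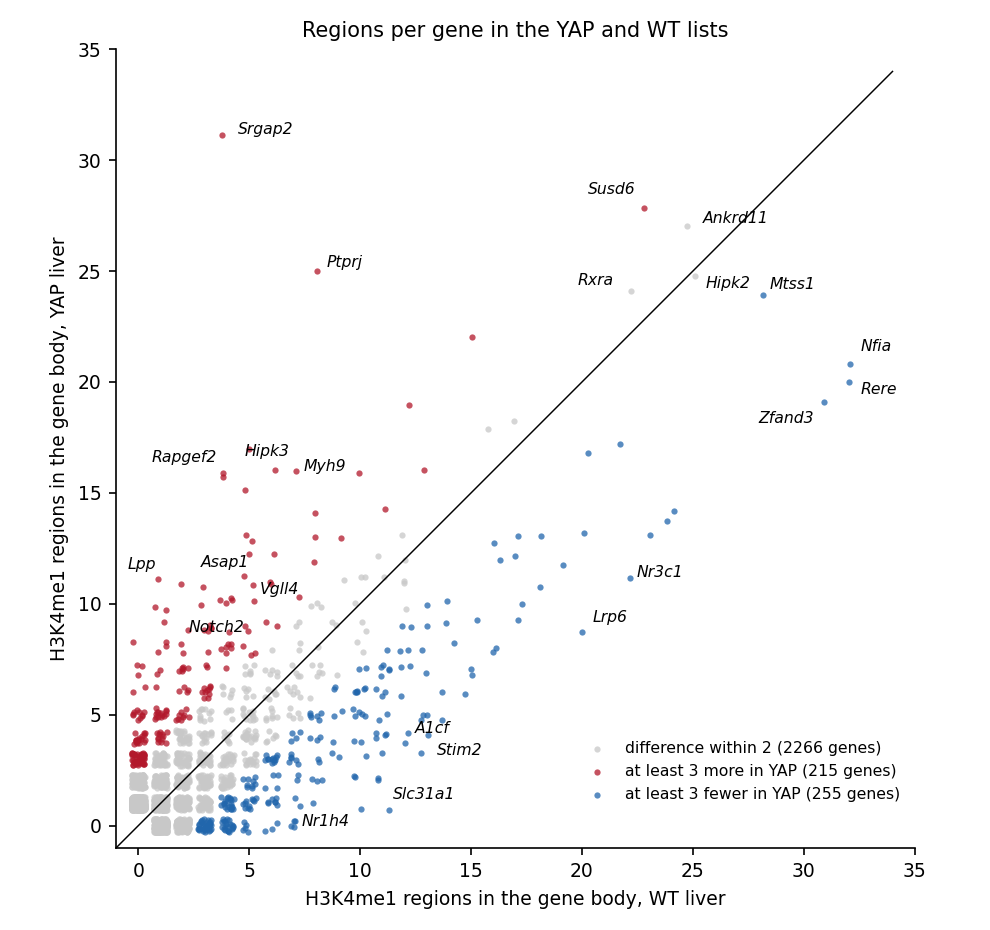
Number of H3K4me1 regions per gene body in YAP liver (vertical axis) against WT liver (horizontal axis) for the 2736 genes with a region; points are shifted at random by up to 0.3 so that they can be seen, and the line marks equal numbers. Srgap2 (31 in YAP, 4 in WT) and Ptprj (25 in YAP, 8 in WT) stand farthest above the line, and Zfand3 (19 in YAP, 31 in WT) and Rere (20 in YAP, 32 in WT) farthest below it.

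The largest excess of regions in YAP was at Srgap2 and the next at Ptprj. Srgap2, which encodes a membrane-bending regulator of small GTPases, had 31 YAP regions and 4 WT regions. It and the genes after it were chosen for this difference, so their counts are a description. Ptprj, a receptor tyrosine phosphatase, had 25 YAP and 8 WT regions. Zfp608, a zinc finger protein, had 17 in YAP and 5 in WT, Rapgef2, an exchange factor for the small GTPase Rap, 16 in YAP and 4 in WT, and Magi1, a scaffold of tight junctions, 16 in YAP and 4 in WT. Hipk3, a kinase, had 16 in YAP and 6 in WT, and Pkp4, a plakophilin of cell junctions, 15 in YAP and 5 in WT. Lpp, a LIM-domain protein of focal adhesions, had 11 YAP regions and 1 WT region, Myh9, the heavy chain of non-muscle myosin IIA, had 16 in YAP and 7 in WT, and Pacsin2, a membrane-bending protein, had 10 in YAP and 1 in WT. All of these kept more regions in YAP under every alternative that changed the counts, except Myh9, which had equal numbers among the strongest 1919 regions of each list.

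H3K4me2 covered more bases in YAP at 9 of these 10 genes, beside 33.8% of the 2721 genes with regions of both marks. It covered 12.7 kb in YAP and 7.02 kb in WT at Srgap2, 16.9 in YAP and 8.72 kb in WT at Ptprj, 10.1 in YAP and 4.87 kb in WT at Hipk3, and 15.6 in YAP and 8.11 kb in WT at Pacsin2. Lpp went the other way, with 7.84 kb in YAP and 12.6 kb in WT. Along Srgap2 the YAP regions ran from 3.92 to 239 kb after the start, with a median of 47.7 kb, and the 4 WT regions from 15.4 to 240 kb.

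The largest deficits in YAP were of 10 to 12 regions. Nr3c1, the glucocorticoid receptor, had 11 YAP and 22 WT regions. Slc31a1, the high-affinity copper importer, had 1 YAP region and 11 WT regions. Rere, a co-repressor of the atrophin family, had 20 in YAP and 32 in WT, Daam1, a formin of Wnt signalling, 14 in YAP and 24 in WT, and Nfib, a nuclear factor I transcription factor, 13 in YAP and 23 in WT. These 5 kept fewer regions in YAP under every alternative, but without the regions of q of 1 by 3 at Nr3c1, 2 at Slc31a1, 2 at Rere, 4 at Daam1 and 1 at Nfib. Zfand3, a zinc finger protein, had 19 YAP and 31 WT regions, Nfia, the other large nuclear factor I gene, 21 in YAP and 32 in WT, Lrp6, the Wnt co-receptor, 9 in YAP and 20 in WT, and Shb, an SH2-domain adaptor, 14 in YAP and 24 in WT. These 4 turned round when regions with q of 1 were left out, to an excess of 7 regions in YAP at Zfand3, 4 at Nfia, 1 at Lrp6 and 1 at Shb. Zfand3 also had 2 more in YAP among the strongest 1919 regions of each list. Stim2, a calcium sensor of the endoplasmic reticulum, had 3 YAP and 13 WT regions, and equal numbers without the regions of q of 1.

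H3K4me2 covered less in YAP at all 10 genes, beside 66.1% of the 2721 genes with regions of both marks. It covered 11.3 kb in YAP against 21.5 kb in WT at Nr3c1, 7.06 kb in YAP against 10.9 kb in WT at Slc31a1, 16.9 kb in YAP against 28.8 kb in WT at Shb and 39.4 kb in YAP against 46.9 kb in WT at Nfia. In Slc31a1 the 11 WT regions ran from 4.79 to 23.0 kb after the start, and the YAP region lay at 8.21 to 9.11 kb, across 2 of them. In Nfia the regions began far inside the outermost annotated start, at 203 kb in YAP and 202 kb in WT, and H3K4me2 began at 168 kb in both.

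**Figure D4:**
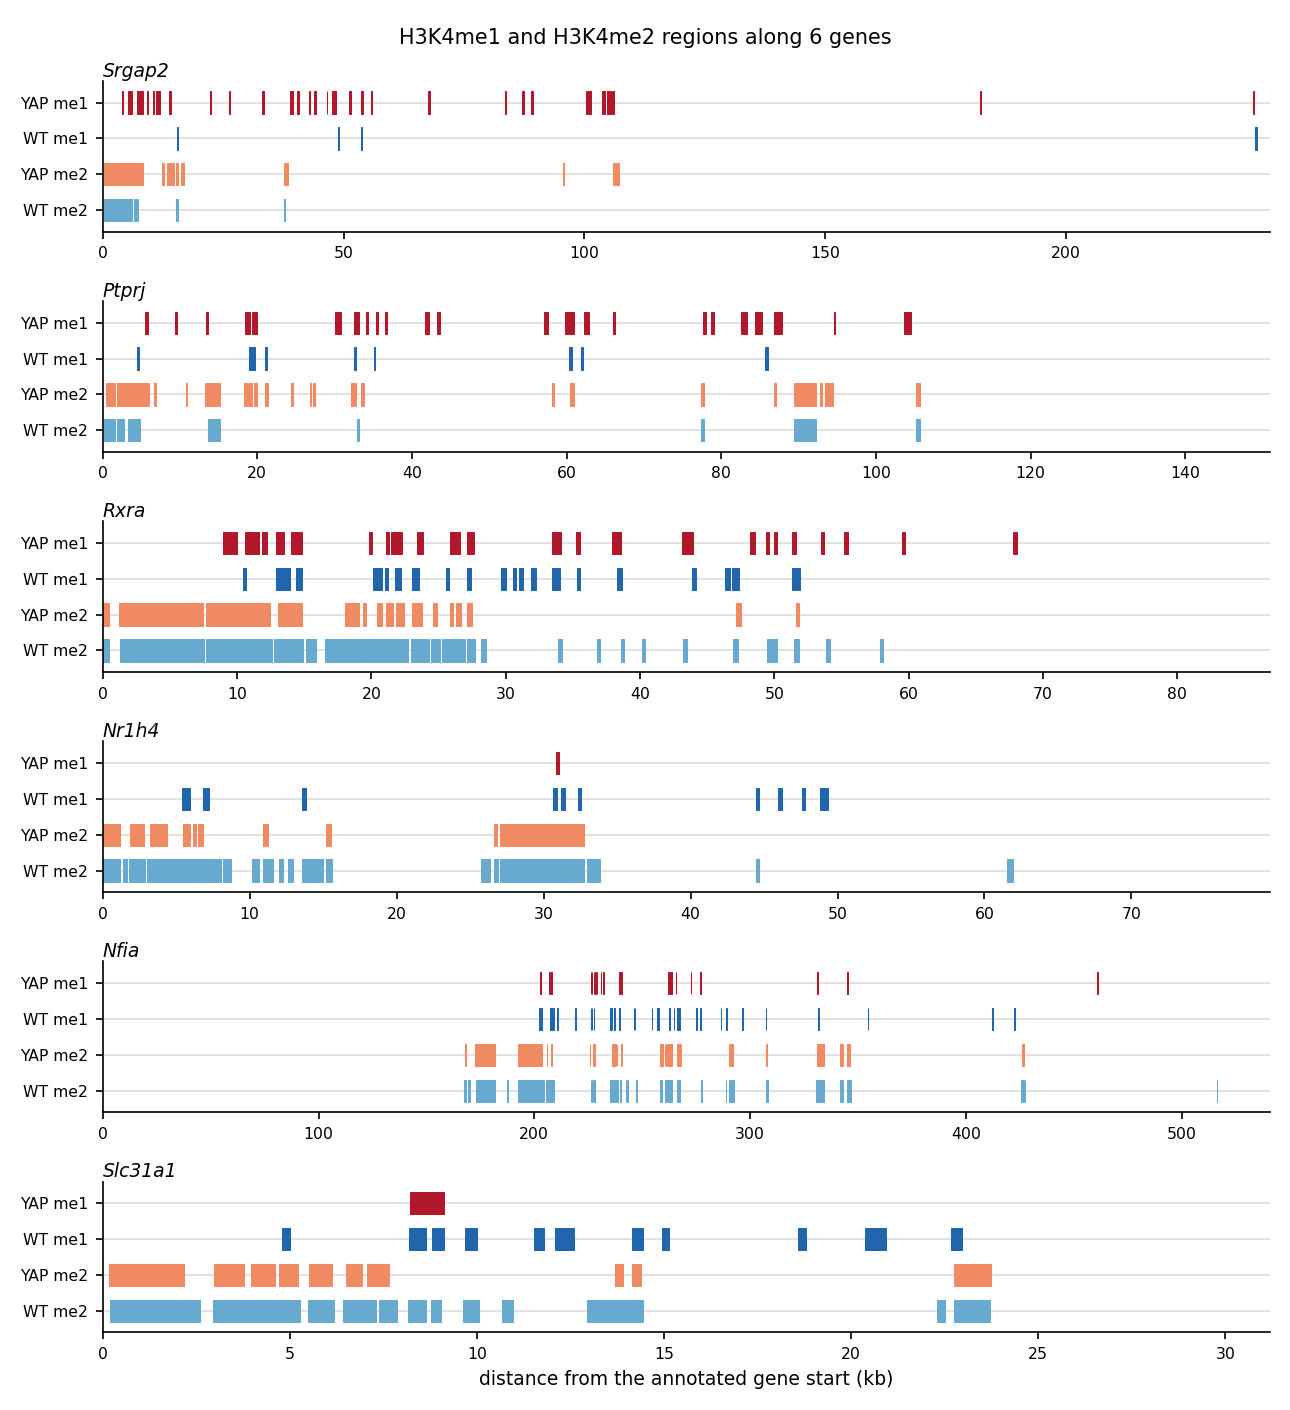
Regions of H3K4me1 (me1) and H3K4me2 (me2) in the YAP and WT lists along 6 genes, by distance in kb from the annotated start; each bar is 1 region, drawn to scale. H3K4me1 regions number 31 in YAP and 4 in WT at Srgap2, 25 in YAP and 8 in WT at Ptprj, 24 in YAP and 22 in WT at Rxra, 1 in YAP and 10 in WT at Nr1h4, 21 in YAP and 32 in WT at Nfia, and 1 in YAP and 11 in WT at Slc31a1.

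The genes richest in H3K4me1 were chosen by the sum of both lists, and those named had regions in each. They include Nfia with 53 regions over both lists, Rere with 52, Zfand3 with 50 and Daam1 with 38, whose deficits in YAP are given above. Smaller differences were found at the following genes. Hipk2, a kinase that acts on p53, had 25 regions in each list, of which 5 YAP and 7 WT regions were shared with the overlapping Tbxas1. Ankrd11 had 27 YAP and 25 WT regions, Rxra, the retinoid X receptor that pairs with other nuclear receptors, 24 in YAP and 22 in WT, and Susd6, a sushi-domain membrane protein, 28 in YAP and 23 in WT. Mtss1, an actin- and membrane-binding protein, had 24 YAP and 28 WT regions. Only part of these were shared regions: 12 of the 24 YAP regions in Rxra, 14 of 28 in Susd6 and 6 of 24 in Mtss1 overlapped a WT region. Without the regions of q of 1, Mtss1 had 8 more in YAP, and with regions of a list within 1 kb joined Susd6 had 3 fewer. H3K4me2 at Mtss1 covered 11.2 kb in YAP and 27.4 kb in WT, and at Rxra 18.5 kb in YAP and 28.9 kb in WT, although H3K4me1 differed by 4 and 2 regions.

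Regions were less clustered in YAP. A cluster was a run of at least 3 regions with gaps of at most 10 kb, and such runs took in 46.0% of the YAP list (44.8% to 47.2%) and 57.5% of the WT list (56.3% to 58.8%), a difference of -11.5 percentage points (-13.3 to -9.78). There were 596 clusters in YAP and 636 in WT, and 32 in YAP and 68 in WT had at least 10 regions. Regions with no neighbour within 10 kb made up 34.7% in YAP and 24.9% in WT, and the median gap to the next region was 14.0 kb in YAP and 6.12 kb in WT. This difference turned round, to 36.9% in YAP and 33.8% in WT, when regions with q of 1 were left out and the YAP list became the longer by 2.03 times. It held among the strongest 1919 regions of each list, at 23.1% in YAP and 33.8% in WT.

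The largest YAP cluster spanned 60.5 kb of Susd6 (chr12:80794847-80855352) with 28 regions, and 22 WT regions lay in the same span. The next held 24 regions over 59.1 kb of Rxra (chr2:27685427-27744493), with 22 WT regions, and 20 regions over 57.9 kb from Srgap2 into Fam72a (chr1:131471601-131529514), with 3 WT regions. The largest WT cluster spanned 94.9 kb of Nfia (chr4:97780080-97874958) with 27 regions, where YAP had 18. It was followed by 23 regions in Susd6 (chr12:80795730-80856650), where YAP had 27, and by 22 regions over 57.3 kb of Nr3c1, where YAP had 9. Of these 6 clusters, those at Srgap2 and Nr3c1 differed most between the lists. H3K4me2 in these spans numbered 10 regions in YAP and 8 in WT at Srgap2, and 6 in YAP and 21 in WT at Nr3c1.

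Known gene groups were read from 21 lists of 471 genes, of which 164 had a region; members and lists were chosen with earlier results of these data in view, and 7 genes stood in 2 lists. A region in either list was present in 12.5% of all protein-coding genes, and the median difference of YAP minus WT over the 2736 genes with a region was 0. Of these 2736 genes, 46.6% had more in YAP and 40.0% fewer, while 7.86% were called with more and 9.32% with fewer. Calls were more frequent in long genes. Of 1368 autosomal genes of 100 to 200 kb, 73 were called with more and 52 with fewer. Of 7343 under 10 kb, 1 and 2 were. Median lengths were 55.5 kb for YAP targets, 96.0 kb for hormone receptors and 64.9 kb for insulin signalling, against 17.2 kb for all genes. Of the 30 YAP target genes, 13 had a region, 46 in YAP and 21 in WT. Of these 13, 10 had more in YAP and 2 fewer, and 4 were called with more and 1 with fewer; the median difference was 1. Asap1, an Arf GTPase-activating protein, had 11 YAP and 3 WT regions, Wwc1, the Hippo regulator KIBRA, 6 in YAP and 2 in WT, Crim1, a membrane protein that binds bone morphogenetic proteins, 5 in YAP and 0 in WT, and Nuak2, a kinase of the AMPK family, 5 in YAP and 1 in WT. Strn3, a striatin of the phosphatase complex that acts on Hippo kinases, went the other way with 9 in YAP and 12 in WT. Ccn1 and Ccn2, the most used YAP targets, had no H3K4me1 region in either list; at Ccn2, H3K4me2 covered 3.18 kb in YAP and was not listed in WT. Of the 22 Hippo pathway genes, 12 had a region, 27 in YAP and 13 in WT, with more in 8, fewer in 2 and a median difference of 1. Vgll4, a TEAD-binding repressor, led with 11 in YAP and 5 in WT. Taok1, a kinase upstream of the Hippo kinases, had 3 in YAP and 1 in WT, Tead1 and Map4k4 2 in YAP and 0 in WT each, and Yap1 itself 1 in YAP and 2 in WT. Both lists had more regions in YAP under every alternative, by 10 to 25 for the targets and 4 to 15 for the pathway.

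Genes of actomyosin and focal adhesions held 79 YAP and 55 WT regions in 18 of 30 members, with more in 9, fewer in 6 and a median difference of 0.5. Besides Lpp and Myh9, Pxn, the focal adhesion adaptor paxillin, was called with 5 YAP regions and none in WT, while Cald1, the actin-binding caldesmon, had 7 in each. Rock2, a kinase that activates myosin, had 5 in YAP and 3 in WT. Lpp, Myh9 and Pxn made up the excess of 24 regions, since the other 15 members held 47 regions in each list. The excess shrank to 1 among the strongest 1919 regions of each list. Of 22 biliary and progenitor markers, 4 had a region, 11 in YAP and 3 in WT. Among these, Notch2, the receptor that directs biliary fate, had 8 in YAP and 2 in WT, its ligand Jag1 2 in YAP and 0 in WT, and Onecut1 0 in YAP and 1 in WT. Of 30 cell cycle genes, 2 had a region: Cdk6, a kinase of the G1 phase, with 8 in YAP and 1 in WT, and Mcm6, of the replicative helicase, with 1 in YAP and 0 in WT.

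Growth hormone and insulin signalling had the largest deficit, 55 YAP and 95 WT regions in 14 of 20 members, with more in 1, fewer in 12 and a median difference of -2.5. Called with fewer were 7 members, beside 9.32% of all genes with a region. Among them Pik3r1, the regulatory subunit of PI3 kinase, had 13 regions in YAP and 20 in WT, and Foxn3 5 in YAP and 11 in WT. Foxo1, the insulin-restrained transcription factor, had 7 in YAP and 11 in WT, and Foxo3 8 in YAP and 12 in WT. Igf1 had 5 in YAP and 8 in WT, and Stat3 3 in YAP and 6 in WT. Receptors for growth factors and hormones followed, with 74 YAP and 112 WT regions in 20 of 26 members, more in 6, fewer in 12 and a median difference of -1.5, while the 10 members that were not called held 24 in YAP and 21 in WT. Called with fewer were 9 receptors, beside the same 9.32%. Among them were Lrp6, Insr, the insulin receptor (13 in YAP and 18 in WT), and Met, the hepatocyte growth factor receptor (1 in YAP and 6 in WT). Others were Egfr (9 in YAP and 13 in WT), Ghr, the growth hormone receptor (5 in YAP and 9 in WT), and Il6st, the shared subunit of interleukin 6 receptors (0 in YAP and 4 in WT). Fgfr2 was called with more, at 3 in YAP and 0 in WT. Both lists turned round when regions with q of 1 were left out, to an excess of 4 regions for the signalling list and 7 for the receptors, and had 6 and 16 fewer in YAP among the strongest 1919 regions of each list.

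Among 29 nuclear receptors, 16 had a region, 59 in YAP and 86 in WT, with more in 6, fewer in 8 and a median difference of -0.5. The 12 members that were not called held 37 regions in YAP and 34 in WT. Nr1h4 had 1 YAP region and 10 WT regions, and Nr3c1 11 in YAP and 22 in WT. Thrb, a thyroid hormone receptor, had 3 in YAP and 9 in WT, and Rora, a clock-linked receptor, 7 in YAP and 11 in WT. H3K4me2 at Nr1h4 covered 10.98 kb in YAP and 19.8 kb in WT. All 4 nuclear factor I genes had fewer in YAP, 35 regions against 59 in WT, with a median difference of -6: Nfia 21 in YAP and 32 in WT, Nfib 13 in YAP and 23 in WT, Nfix 1 in YAP and 3 in WT, and Nfic 0 in YAP and 1 in WT. Without the regions of q of 1 these lists had 6 and 1 more in YAP; among the strongest 1919 of each list they had 14 and 11 fewer. The 27 hepatocyte transcription factors held 20 regions in each list over 11 members, with a median difference of 0 and with Stat5b, which carries the growth hormone signal, at 5 in YAP and 1 in WT, Gata4 at 3 in YAP and 6 in WT, and Nr5a2 at 7 in each.

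Among the genes of hepatocyte output, the plasma protein list differed most in total regions. It had 7 YAP and 19 WT regions in 6 of 32 members, with more in 3, fewer in 3 and a median difference of 0. Most of these regions were in A1cf, the RNA-editing cofactor of apolipoprotein B, with 4 in YAP and 12 in WT. The 4 members that were not called held 3 in YAP and 1 in WT, so the deficit lay in the 2 called members. The deficit of the whole list held under every alternative, at 5 to 13.2 regions. At A1cf, H3K4me2 covered 5.75 kb in YAP and 18.4 kb in WT. Liver metabolism had 7 YAP and 12 WT regions in 7 of 33 members, drug metabolism and transport 7 in YAP and 10 in WT in 10 of 29, and clock and lipid regulators 25 in YAP and 34 in WT in 13 of 24, with median differences of -1, -0.5 and -1. These 3 had an excess in YAP of 4, 1 and 7 regions without those of q of 1, and the first and the last also of 1 and 2 among the strongest 1919. In the clock and lipid list Ncoa2, a steroid receptor co-activator, had 7 in YAP and 12 in WT, Scap, the sterol sensor of SREBP processing, 1 in YAP and 4 in WT, and Med13l, of the Mediator complex, 0 in YAP and 3 in WT.

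For the axis named in the series title, 17.4% of the polyamine and hypusination genes and 40.0% of the LSD1 complex genes had a region. Over all protein-coding genes this share was 12.5%. Median lengths were 13.8 kb for the polyamine list and 39.5 kb for the LSD1 complex list, against 17.2 kb for all genes. Kdm1a and Odc1, which encodes ornithine decarboxylase, the entry enzyme of polyamine synthesis, had none in either list. Of 23 polyamine and hypusination genes, 4 had a region, 7 in YAP and 9 in WT: Atp13a3, a polyamine transporter, had 3 in YAP and 4 in WT, Amd1 2 in YAP and 3 in WT, Oaz2 1 in YAP and 2 in WT, and Azin1 1 in YAP and 0 in WT. Without the regions of q of 1 this list had 3 more in YAP, and among the strongest 1919 of each list 1 more. LSD1 complex genes had 7 in YAP and 5 in WT in 6 of 15 members, with Phf21a, a reader of unmethylated H3K4, at 3 in YAP and 0 in WT and Zmym2 at 0 in YAP and 2 in WT. H3K4 methyltransferases, demethylases and partners had 13 in YAP and 16 in WT in 6 of 20, with Kmt2e at 4 in YAP and 10 in WT and Ncoa6, a subunit of the Kmt2c and Kmt2d complexes, at 4 in YAP and 1 in WT; without the regions of q of 1 they had 5 more in YAP.

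**Figure D5:**
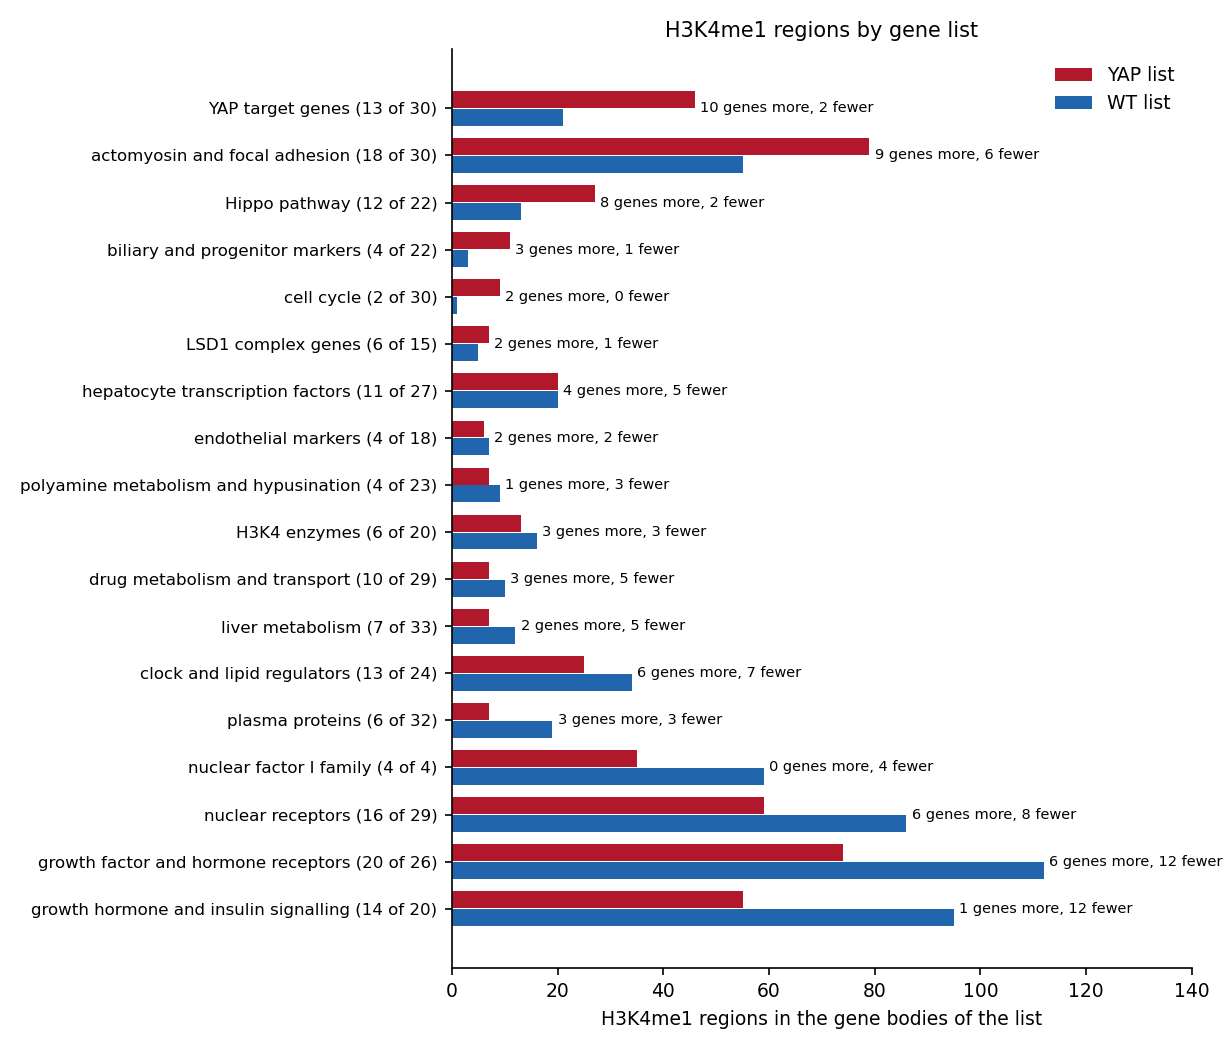
H3K4me1 regions in the gene bodies of each gene list, YAP above WT, ordered by the difference; in brackets the members with a region of all members, and beside the bars the number of genes with more or fewer in YAP. YAP target genes are at the top with 46 in YAP and 21 in WT, and growth hormone and insulin signalling at the bottom with 55 in YAP and 95 in WT; the deficits of the signalling, receptor, nuclear receptor and nuclear factor I lists turn round without regions of q of 1.

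H3K4me2 lay on all 27 hepatocyte transcription factor genes and all 32 plasma protein genes in both genotypes. It also lay on all 30 cell cycle genes and all 22 Hippo pathway genes, so this coverage does not check the tissue label. Of the 29 drug metabolism and transport genes, 21 had H3K4me2 in YAP and 26 in WT. H3K4me1 lay on 8 of the 27 transcription factor genes in YAP and 8 in WT, and on 4 of the 32 plasma protein genes in YAP and 3 in WT. Of the markers of other liver cells, none of 15 macrophage, 15 stellate cell and 14 lymphocyte genes had an H3K4me1 region in either list, and 4 of 18 endothelial genes had one, with 6 YAP and 7 WT regions of which 3 in YAP and 6 in WT were in Gata4. Macrophage genes with H3K4me2 numbered 7 in YAP and 2 in WT, stellate cell genes 5 in YAP and 6 in WT, and lymphocyte genes 3 in YAP and 2 in WT. Endothelial genes with H3K4me2 numbered 16 in YAP and 14 in WT, and biliary genes 16 in YAP and 16 in WT. In whole liver, fewer cells of a type and less of a mark per cell cannot be told apart.

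H3K4me2, measured in other libraries, was read at the called genes as covered bases per gene body, with 500 bases added before the log2 ratio of YAP over WT. The median ratio was 0.07 at the 215 genes with at least 3 more H3K4me1 regions, -0.39 at the 255 with at least 3 fewer, and -0.11 over all 2721 genes with both marks. H3K4me2 covered more in YAP at 131 of the 215 and less at 84, and it covered more at 30 of the 255 and less at 225. At least 1 kb more was found at 36.7% of the genes with more and 4.31% of those with fewer, against 10.8% over all; at least 1 kb less was found at 19.1% and 65.9%, against 29.7% over all. With H3K4me2 regions that overlapped H3K4me1 left out, an alternative added after the data were seen, the medians were 0.04 and -0.27, against -0.11 over all such genes. Without the H3K4me1 regions of q of 1, the 221 genes with more had a median of 0.01 and the 21 with fewer -0.55.

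LSD1, for which the YAP list was the longer, lay in 38.6% of the genes with more H3K4me1 in YAP livers and in 17.7% of them in WT livers. For genes with fewer H3K4me1 these shares were 25.5% in YAP and 16.5% in WT, and for all genes with a region 22.3% in YAP and 11.9% in WT. Per Mb of gene, which takes the difference in gene length into account, LSD1 regions numbered 4.02 in YAP and 1.45 in WT at genes with more, 2.76 in YAP and 2.09 in WT at genes with fewer, 2.90 in YAP and 1.45 in WT at all genes with a region, and 1.57 in YAP and 0.828 in WT at autosomal genes with none. The ratio of YAP to WT LSD1 was thus lower at the genes with fewer H3K4me1 regions than at the others.

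MicroRNA genes were also read for H3K4me1 nearby. Of 1005 hairpins with a RefSeq sequence, 11 had a YAP region within 1 kb and 7 a WT region, 5 of them both. The lists cover little of the genome and no share for other places was computed, so these counts do not set microRNA genes apart. The let-7 cluster on chromosome 13 and Mir1961 gave mature forms with 1 shared seed (bases 2 to 8, in capitals), and Mir26b is shown beside them with another seed.
mmu-let-7a-5p: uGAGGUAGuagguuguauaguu
mmu-let-7f-5p: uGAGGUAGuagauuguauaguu
mmu-miR-1961: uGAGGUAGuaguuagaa
mmu-miR-26b-5p: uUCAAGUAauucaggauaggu

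Mirlet7a-1 had a region within 1 kb in both lists, while Mirlet7f-1, Mir1961 and Mir26b had one in the YAP list alone. Mirlet7a-1 and Mirlet7f-1 are neighbours in 1 cluster, so the same YAP region can count for both. The WT region near Mirlet7a-1 likewise lay only just past 1 kb from Mirlet7f-1, so the YAP list alone there rests on the cutoff.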

How the data were processed

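Lists of H3K4me1 regions from YAP and WT liver were compared, with the H3K4me2 and LSD1 lists beside them. Reads had been handled with deepTools 3.3.0, bedtools 2.26.0, Picard 1.126, SAMtools 1.7, BWA and Trimmomatic 0.39 on mm10, per the submitters' processing notes. How regions were called, at what threshold and against which input is not given in the sources used here. Both replicates of a genotype share 1 list per the labels, in a manner not stated, so the depth per library is unknown. In the histone lists deposited by the authors, the score equals 10 times the −log10 p without decimals. The deposited signal column holds the authors' enrichment value, of undefined scale, and the −log10 p and −log10 q are the authors' own. These values filtered regions within a list, and their medians and shares are set side by side between lists as a description. The score of the LSD1 lists deposited by the authors was not used, only positions.

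Gene bodies came from RefSeq (GRCm38.p6, mm10 coordinates); strand came from its promoter table. A region counted for every protein-coding gene that it overlapped by at least 1 bp. Intervals are 95% Wilson intervals for a share and Newcombe intervals for a difference of shares. Genes are named by rule: the 10 largest excesses, the 10 largest deficits, the 10 with most regions, the 10 densest, the 3 largest clusters of each list, up to 4 members per gene list, and Kdm1a, Odc1, Yap1, Ccn1 and Ccn2; further list members, the genes of the 102 strongest regions and the printed promoters and microRNAs were added after their values were seen. Some genes that the rule names are not reported here. Members and lists were chosen with earlier results of these data known. Alternatives were a −log10 p of at least 3, q below 1, equal list lengths, joining within 1 kb, other overlap, gene and cluster definitions, and other sizes of a call. Overlap counting was tested on simulated regions against bedtools 2.31.1. Python 3.11.15, numpy 2.4.6, pandas 2.3.3, scipy 1.17.1 and matplotlib 3.10.9 were used.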

Additional observations from a re-analysis of the deposited data

How the results depend on the processing

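No paired analysis was possible because both replicates of a genotype share 1 list, and for the same reason no replicate could be left out. With a −log10 p of at least 3, the ratio of YAP to WT regions was 1.10, the share of YAP regions overlapping WT 21.9% and the share of WT regions in clusters 55.4%. Without regions of q of 1, the ratio was 2.03, the share of YAP regions overlapping WT 12.6%, the shares in clusters 36.9% in YAP and 33.8% in WT, and 21 genes had at least 3 fewer. With both lists shortened to the length of the shorter, the ratio was 1 and the share of WT regions overlapping YAP 24.4%. With regions within 1 kb joined, the ratio was 1.16, the WT share overlapping YAP 27.8%, and the shares in clusters 31.4% in YAP and 38.6% in WT. Under this joining 159 genes had at least 3 more and 131 at least 3 fewer. Among the strongest 1919 regions of each list, the ratio was 1 by construction, the overlaps 15.7% of YAP and 16.0% of WT regions, the shares in clusters 23.1% in YAP and 33.8% in WT, and the genes with at least 3 more and fewer 51 and 70. Counting regions within 1 kb as shared gave overlaps of 38.9% in YAP and 44.4% in WT, and a reciprocal overlap of 50% gave 11.7% in YAP and 12.5% in WT. A difference of at least 2 called 478 genes with more and 469 with fewer, and of at least 5 it called 72 and 94. Cluster gaps of 5 kb gave 35.5% in YAP and 47.1% in WT, and of 20 kb 55.2% in YAP and 64.5% in WT. The share of calls with more was 45.7%. It was 54.8% with regions within 1 kb joined and 91.3% without regions of q of 1. Without regions of q of 1, 14 genes with at least 3 fewer became genes with at least 3 more. That filter changed the length of each list and the choice of regions together.

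Without regions of q of 1 the direction turned, to an excess in YAP, for nuclear receptors (6), nuclear factor I (1), growth factor and hormone receptors (7), growth hormone and insulin signalling (4), liver metabolism (4), drug metabolism (1), H3K4 enzymes (5) and clock and lipid regulators (7). It turned likewise at Zfand3 (7), Lrp6 (1), Nfia (4), Shb (1), Mtss1 (8), Gng5 (2), Abhd17c (1), Gata4 (1), Rora (1), Acvr1 (1), Pik3r1 (3), Foxo3 (1), Kmt2e (1) and Ncoa2 (1). Joining within 1 kb turned Susd6 (-3). Among the strongest 1919 regions of each list, liver metabolism (1), clock and lipid regulators (2), Zfand3 (2) and Ncoa6 (-1) turned. The cause was not tested.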
